A study of Homo sapiens with 8 samples.

Results

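Small noncoding RNA genes were examined in total RNA of human skin fibroblasts. They comprised every row of the deposited table with the biotype snRNA, snoRNA, scaRNA or misc_RNA, which gave 189 of 24598 genes: 129 misc_RNA, 31 snoRNA, 24 snRNA and 5 scaRNA rows. By name and position the rows fell into 88 copies of 7SL, 24 of 7SK, 22 of the major spliceosomal RNAs, 1 of a minor spliceosomal RNA, 20 H/ACA and 6 C/D small nucleolar RNAs (snoRNAs), 7 small Cajal body RNAs (scaRNAs), 1 row of Y RNAs, 3 snoRNA rows left unassigned and 17 other misc_RNA rows. No vault RNA was among them. The 7 scaRNAs include SCARNA10 and SCARNA18, which the table lists as snoRNA.

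The cells were CCD-1077Sk, an established line of normal skin fibroblasts, collected after 6 h. The 4 groups of 2 libraries each were control cells with vehicle (bovine serum albumin, citric acid and DMSO), cells given transforming growth factor beta 1 (TGFB1) and DMSO, cells given celastrol at 500 nM with the vehicle of TGFB1, and cells given both TGFB1 and celastrol at 500 nM. Celastrol is a plant triterpenoid and TGFB1 a cytokine that drives matrix production. Whether the 2 libraries of a group are from different cultures is not in the labels, and the p-values therefore rest on a spread that may be technical. All 10 fibroblast markers examined were in the table with means of at least 3293 normalized reads. Markers of other cells moved with celastrol: the summed level of the 4 endothelial markers in the table (of 5) was 52.7 to 98.9 without celastrol and 354 to 465 with it, that of 2 melanocyte markers (of 5) 8.75 to 14.1 and 95.7 to 134, and that of 3 immune markers (of 5) 245 to 369 and 374 to 516. The 3 keratinocyte markers (of 6) summed to 880 to 1059 and 894 to 1072, and the 10 fibroblast markers to 468859 to 671022 and 373746 to 467773, lower in every celastrol library. Their part in the results was not tested.

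Values are normalized reads, which are estimated reads divided by 1 size factor per library, and each library held 20716711 to 42518357 estimated reads. A library with 0 reads allows up to 3, or 1.80 to 4.24 normalized reads, a limit that covers counting error only. Changes are log2 fold changes of value plus 1 between groups of n = 2 libraries with their standard error (SE), and adjusted p-values are from limma with Benjamini-Hochberg adjustment over 22866 genes. Differences with an adjusted p under 0.05 are called higher or lower. Every row of the table reached at least 11 estimated reads in some library, and 139 of the 189 rows passed the filter for testing. Of these, 25 passed only through the celastrol libraries and 37 only through the libraries without celastrol, so these rows had to differ between those groups. Rows named below with under 50 normalized reads in their higher group were chosen after their values were seen, apart from RNU4-2.

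Spliceosomal small nuclear RNAs join with Sm proteins to recognise splice sites and catalyse splicing. C/D snoRNAs guide ribose methylation and H/ACA snoRNAs guide pseudouridylation, mostly of ribosomal RNA, while scaRNAs guide modification of spliceosomal RNAs in Cajal bodies, and most are processed out of introns of a host gene. RNA polymerase III makes 7SK, which holds the elongation factor P-TEFb inactive, 7SL, the RNA core of the signal recognition particle, and the Y RNAs, and it also left many scattered 7SK and 7SL pseudogene copies, whose names end in P or P and a number.

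Sequences are shown for members on which the results turn, from GENCODE release 29 on build GRCh38, which matched 185 of the 189 rows within 5 bases of both ends. The first set shows why several rows cannot be told apart. RNU1-1 (chromosome 1, 16514122 to 16514285, minus strand) is U1, with the stretch that pairs with 5′ splice sites (ACTTACCTG) and the Sm site (ATTTGTGG) in capitals. RNU1-2, RNU1-3, RNU1-4, RNU1-27P, RNU1-28P, RNVU1-18 and RNVU1-29 have the identical 164 bases. RNVU1-7 (chromosome 1, 148038753 to 148038916, minus strand) differs by T150C and RNVU1-28 by G37T, counted from 1 at the 5′ end with the base of RNU1-1 first, and the differing base of RNVU1-7 is in capitals.

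RNU1-1: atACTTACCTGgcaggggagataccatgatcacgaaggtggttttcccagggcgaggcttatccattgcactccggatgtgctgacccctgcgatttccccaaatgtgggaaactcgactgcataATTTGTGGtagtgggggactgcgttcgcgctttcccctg

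RNVU1-7: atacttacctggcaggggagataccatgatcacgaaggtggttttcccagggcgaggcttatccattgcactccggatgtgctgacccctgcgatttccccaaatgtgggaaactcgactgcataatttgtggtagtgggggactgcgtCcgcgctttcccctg

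The next set is U3, the C/D snoRNA that takes part in cleavage of the ribosomal RNA precursor, in its 4 gene rows on chromosome 17. SNORD3A lies at 19188016 to 19188714 (plus strand), SNORD3B-1 at 19061912 to 19062669 (plus strand), SNORD3B-2 at 19063346 to 19064136 (minus strand) and SNORD3C at 19189665 to 19190245 (minus strand). These rows are longer than the RNA, and a stretch from the 5′ end is shown with TGATGA and the last CTGA, the letters of the C and D boxes, in capitals. Against SNORD3A, SNORD3C differed by G108A, and SNORD3B-1 and SNORD3B-2 by A78C.

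SNORD3A: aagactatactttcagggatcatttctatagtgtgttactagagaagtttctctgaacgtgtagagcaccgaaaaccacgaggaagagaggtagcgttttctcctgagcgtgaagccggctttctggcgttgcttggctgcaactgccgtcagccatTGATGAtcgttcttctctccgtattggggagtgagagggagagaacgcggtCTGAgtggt

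SNORD3C: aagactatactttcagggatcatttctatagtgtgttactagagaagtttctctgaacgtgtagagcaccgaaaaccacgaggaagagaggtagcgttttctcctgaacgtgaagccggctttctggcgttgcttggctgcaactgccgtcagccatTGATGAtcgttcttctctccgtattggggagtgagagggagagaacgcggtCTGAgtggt

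SNORD3B-1: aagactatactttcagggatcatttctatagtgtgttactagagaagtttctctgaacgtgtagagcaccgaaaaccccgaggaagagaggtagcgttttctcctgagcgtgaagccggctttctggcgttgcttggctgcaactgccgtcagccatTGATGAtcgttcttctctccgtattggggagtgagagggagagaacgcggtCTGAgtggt

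SNORA73A (chromosome 1, 28507366 to 28507571) and SNORA73B (28508559 to 28508762), both on the plus strand, are H/ACA snoRNAs of the gene SNHG3 and are shown because SNORA73B fell with celastrol while SNORA73A passed no test. They shared 94.1% of 204 aligned bases, and the ACA 3 bases before the 3′ end is in capitals. That position held ACA in 14 of 19 H/ACA members with a sequence (73.7%), against 75.2% of all 149 SNORA transcripts of the release.

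SNORA73A: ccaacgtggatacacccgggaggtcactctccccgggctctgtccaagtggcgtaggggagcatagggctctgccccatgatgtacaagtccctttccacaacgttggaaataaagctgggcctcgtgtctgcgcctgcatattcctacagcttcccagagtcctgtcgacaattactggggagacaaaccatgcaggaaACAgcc

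SNORA73B: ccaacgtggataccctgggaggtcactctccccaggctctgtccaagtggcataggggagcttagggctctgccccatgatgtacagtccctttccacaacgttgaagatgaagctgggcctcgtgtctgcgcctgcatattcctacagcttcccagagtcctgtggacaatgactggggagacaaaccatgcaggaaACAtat

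SCARNA5 (chromosome 2, 233275727 to 233276002) and SCARNA6 (233288676 to 233288940) lie on the plus strand in introns of ATG16L1, a gene of autophagy, and are shown because only SCARNA6 passed the test. They shared 74.0% of 250 aligned bases. TGATGA and the last CTGA are in capitals.

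SCARNA5: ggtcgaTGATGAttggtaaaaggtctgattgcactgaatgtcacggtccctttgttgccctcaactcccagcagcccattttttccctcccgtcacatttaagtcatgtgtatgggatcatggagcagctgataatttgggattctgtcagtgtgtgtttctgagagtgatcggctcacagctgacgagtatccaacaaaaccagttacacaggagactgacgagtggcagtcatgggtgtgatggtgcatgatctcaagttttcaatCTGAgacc

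SCARNA6: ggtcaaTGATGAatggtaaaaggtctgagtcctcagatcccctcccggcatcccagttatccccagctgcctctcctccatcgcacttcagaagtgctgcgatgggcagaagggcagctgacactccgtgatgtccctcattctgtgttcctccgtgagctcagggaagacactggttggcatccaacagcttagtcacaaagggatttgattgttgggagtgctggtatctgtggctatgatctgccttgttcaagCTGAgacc

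The last set holds the start of 7SK (chromosome 6, 52995620 to 52995950, plus strand) and FP236383.1, a misc_RNA of 90 bases (chromosome 21, 8388898 to 8388987, plus strand). GATC, which occurs in the part of 7SK bound by the inhibitor HEXIM1, is in capitals in the stretch shown. The 4 chromosome 21 rows FP236383.1, FP236383.2, FP671120.1 and FP671120.3 have identical sequences.

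7SK: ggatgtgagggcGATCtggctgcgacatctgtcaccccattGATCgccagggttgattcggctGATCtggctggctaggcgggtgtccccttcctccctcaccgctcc

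FP236383.1: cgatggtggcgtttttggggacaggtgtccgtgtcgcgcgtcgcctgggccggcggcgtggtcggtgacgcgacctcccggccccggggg

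Across all classes, celastrol went with called differences in many rows and TGFB1 in few. In TGFB1-treated cells celastrol left 26 of 139 tested rows higher (18.7%) and 39 lower (28.1%), where 37.5% of all genes tested were higher and 25.9% lower. In cells without TGFB1, 27 rows were higher (19.4%) and 36 lower (25.9%), against 33.8% and 21.3% of all genes. The share of rows called lower was thus near the background in both comparisons, and the share called higher was below it. These 2 comparisons use different libraries. The same 28 rows were lower in both (71.8% of the first list and 77.8% of the second), the same 21 were higher in both (80.8% and 77.8%), and 0 were called in opposite directions. Most of this overlap comes from rows that passed the filter from 1 side: among the 77 rows that did not, a split made after the data were seen, 16 were lower and 6 higher in TGFB1-treated cells, 10 and 5 without TGFB1, and 9 and 3 in both. Centring each library on its median gene gave 62 rows lower in TGFB1-treated cells in place of 39, where it put 39.8% of all genes lower. TGFB1 against control gave 6 rows higher (4.32%) and 3 lower (2.16%), below the 12.8% and 10.6% of all genes. With celastrol present, TGFB1 gave 0 rows in either direction, where 0.00437% of all genes were called higher and 0.00437% lower. The members are low: their median over the 8 libraries was 10.2 normalized reads, against 124 for all rows of the table. Among the 53 rows with a mean of at least 20 normalized reads, a choice made after the data were seen, celastrol left 7 higher and 12 lower with TGFB1, and 7 higher and 9 lower without.

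**Figure D1:**
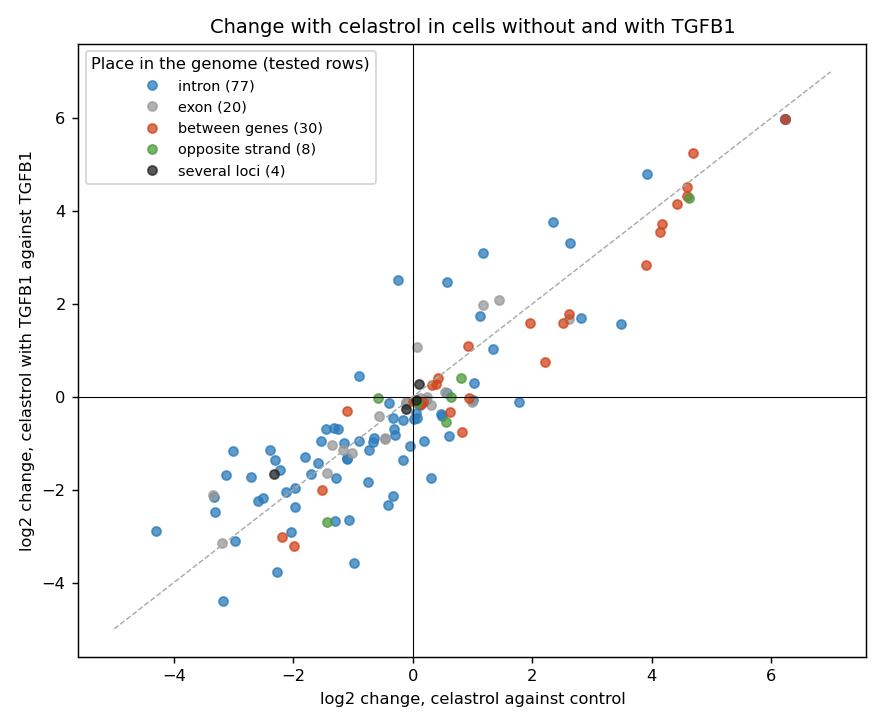
Each point is 1 of the 139 tested small RNA rows, with its log2 change for celastrol against control on the horizontal axis and for celastrol with TGFB1 against TGFB1 on the vertical axis, coloured by its place relative to genes, and the dashed line marks equal change. Rows inside introns lie mostly below 0 on both axes, and rows between genes lie mostly above 0 on the horizontal axis.

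Reads were concentrated in RNA polymerase III products. RN7SL1, RN7SL2 and the 2 rows of the 7SK locus took 97.9% to 98.6% of the members' reads in each library, and all members together took 1.24% to 1.75% of a library. Per kilobase of row, the mean over libraries was 661095 normalized reads for RN7SL1, 358606 for RN7SL2 and 1961 for RN7SL3, which had 97.7% identity with RN7SL1, so reads from the 3 could be divided between rows by the counting. Among snoRNA and scaRNA rows the same quantity was 1628 for SCARNA10, 1141 for SCARNA5, 1057 for SNORA73B and 693 for SNORD3B-1. U1 reached 488 in each of its identical rows and U4 (RNU4-2) 71.0. The 10 U1 rows summed to 618 to 1143 normalized reads per library, so the value of 1 row need not be that of U1 as a whole. No member row was shorter than 90 bases, and how well short RNAs were captured was not tested. These values are therefore not a comparison of levels in the cell.

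In the major spliceosomal class, no canonical gene passed the test. The 8 identical U1 rows held the same values in each library, as their shared sequence allows: 68.7 and 67.4 normalized reads in control, 116 and 72.4 with TGFB1, 63.0 and 82.0 under celastrol and 87.6 and 82.8 with both. The first TGFB1 library was the highest, both control libraries were below those with TGFB1 and those with both agents, and the celastrol libraries overlapped the control and TGFB1 groups. RNVU1-7 differed from these rows in 3 libraries only, with 57.9 in the second control library, 58.8 in the first celastrol library and 76.8 in the second library with both. RNU1-1 changed by 0.42 with TGFB1 (SE 0.26, adjusted p = 0.288 in limma), by -0.10 with celastrol in TGFB1-treated cells (SE 0.26, adjusted p = 0.747) and by 0.08 with celastrol alone (SE 0.26, adjusted p = 0.821).

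RNU2-2P, a U2 gene that lies in an exon of WDR74, held 184 and 191 in control, 259 and 161 with TGFB1, 173 and 238 under celastrol and 183 and 218 with both, so its groups overlapped throughout. RNU4-2, a U4 gene, held 4.92 to 15.7 across the 8 libraries, a few reads above the limit of a library with 0 reads. Of the 15 rows of the class that were tested, 1 was higher and 1 lower in each celastrol comparison. The higher row was RNU6-530P, a U6 copy in an intron of MAGI2, at 10.0 and 13.8 in control, 4.24 and 6.15 with TGFB1, 27.1 and 26.6 under celastrol and 21.7 and 17.6 with both. Both celastrol groups lay above both others, with log2 changes of 1.75 (SE 0.35, adjusted p = 0.0023) and 1.13 (SE 0.35, adjusted p = 0.0238), while MAGI2 itself rose by 1.76 and 0.91. The second call was lost without either celastrol library (adjusted p = 0.0793 and 0.0781 in limma) or the first control library (0.122).

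The genes for proteins that bind or make these RNAs are given by list, to be read against the 37.5% of all genes called higher and 25.9% called lower with celastrol in TGFB1-treated cells. Of 21 tested genes of the Sm core and the SMN complex, which loads it, 2 were higher and 14 lower with celastrol in TGFB1-treated cells, with a median log2 change of -0.31. Of 28 genes of proteins specific to single spliceosomal particles, 1 was higher and 18 lower (median -0.29). Of 9 genes of the minor spliceosome, 0 were higher and 4 lower (median -0.32). Of 10 LSM genes, whose ring binds U6, 1 was higher and 4 lower (median -0.21). Of 27 genes for transcription of small nuclear RNAs, including the Integrator complex that cuts them, 7 were higher and 13 lower (median -0.23). The median over all genes tested was 0.12.

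Among the C/D snoRNAs, 3 of the 4 U3 rows fell with celastrol. SNORD3B-1 held 658 and 737 normalized reads in control and 921 and 935 with TGFB1, against 279.9 and 212 under celastrol and 221 and 239 with both. No library with celastrol reached the level of one without it. The log2 change was -2.01 in TGFB1-treated cells (SE 0.13, adjusted p = 5.19e-06) and -1.51 without TGFB1 (SE 0.13, adjusted p = 3.06e-05). SNORD3C fell from 394 and 248 with TGFB1 to 41.9 and 34.0 with both, by 3.02 on the log2 scale (SE 0.41, adjusted p = 0.000263). Without TGFB1 it went from 282 and 215 to 32.7 and 85.2, a change of -2.20 (SE 0.41, adjusted p = 0.00204). SNORD3B-2 went from 32.4 and 82.6 to 8.35 and 2.50 in TGFB1-treated cells (-3.21, SE 0.65, adjusted p = 0.00251). Without TGFB1 it went from 52.7 and 50.4 to 7.08 and 20.8 (-1.99, SE 0.65, adjusted p = 0.0299), a call lost without the first celastrol library (-1.27, adjusted p = 0.212) and without the first or second control library (adjusted p = 0.0989 and 0.0884 in limma).

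The fourth U3 row did not follow. SNORD3A held 23.1 and 44.3 in control, 63.3 and 53.6 with TGFB1, 46.6 and 81.5 under celastrol and 85.8 and 185 with both. Its changes with celastrol were 1.10 in TGFB1-treated cells (SE 0.45, adjusted p = 0.0587) and 0.93 without (SE 0.45, adjusted p = 0.112), neither past the threshold. The first passed it in 6 alternatives (adjusted p = 0.0149 to 0.0464 in limma), with 1.65 without the first library with both agents, and 1.10 (adjusted p = 0.0149) with the replicate block, under which the second also passed (adjusted p = 0.0357). Summed over the 4 rows, U3 was at 1015 and 1047 in control, 1410 and 1319 with TGFB1, 366 and 399.6 under celastrol and 357 and 460.0 with both. The sum was therefore also below every library without celastrol in each library with it. Over the stretch shown, the other rows each differ from SNORD3A by 1 base, so a read within that stretch can belong to several rows, and the sources used here do not state how such reads were divided.

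**Figure D2:**
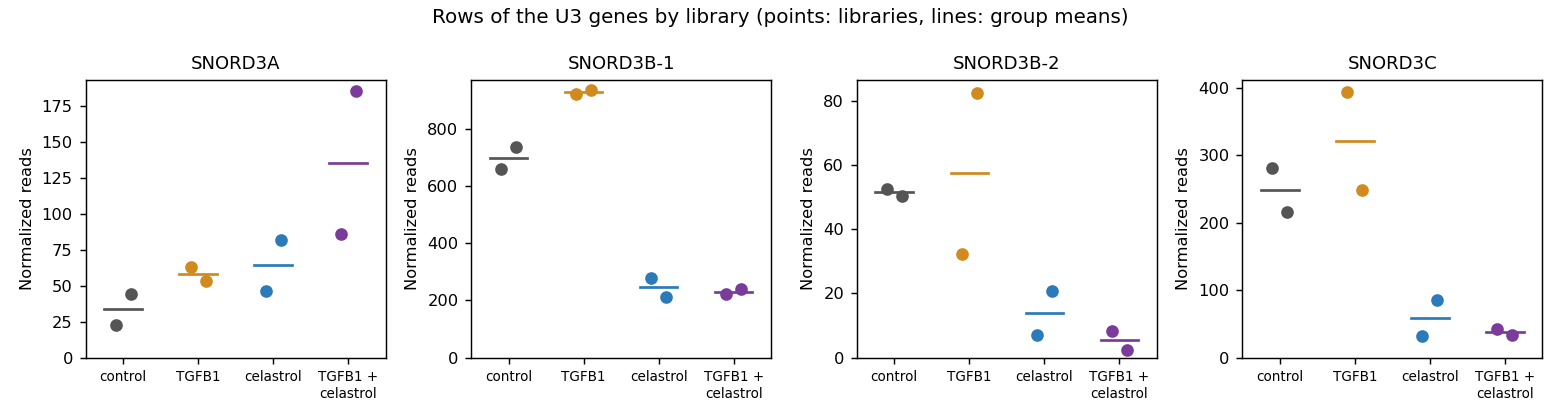
Normalized reads (vertical axis) of the 4 U3 rows in the 8 libraries, by group (horizontal axis), with points for libraries and lines for means of n = 2. SNORD3B-1, SNORD3B-2 and SNORD3C are lower in both celastrol groups, while SNORD3A reaches its highest value, 185, in a library with both agents.

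SNORD17, a C/D snoRNA in an intron of SNX5, held 85.0 and 76.8 in control, 129 and 111 with TGFB1, 77.3 and 94.5 under celastrol and 78.5 and 94.6 with both, and passed no test. SNX5 fell by 0.79 and 0.74 with celastrol. Of 15 genes for C/D particle proteins and their assembly, 2 were higher and 7 lower with celastrol in TGFB1-treated cells (median -0.24). NOP56, a core protein, fell by 1.03 (SE 0.08, adjusted p = 1.08e-05), and NOP58, its partner in the core, rose by 0.42 (SE 0.06, adjusted p = 0.000324).

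Of 13 tested H/ACA rows, celastrol left 1 higher and 7 lower in TGFB1-treated cells, and 1 higher and 5 lower without TGFB1, where all genes gave 37.5% higher and 25.9% lower, and 33.8% and 21.3%. Of the 13, 1 passed the filter only through the celastrol libraries and 6 only through the others, so their direction was fixed. SNORA73B held 238 and 281 in control, 314 and 299.9 with TGFB1, 138 and 173 under celastrol and 165 and 117 with both. Every library with celastrol was below every library without it. The change was -1.14 with TGFB1 (SE 0.19, adjusted p = 0.000894) and -0.73 without (SE 0.19, adjusted p = 0.011). Its neighbour SNORA73A, 94.1% identical, held 93.6 and 95.5, with 158 and 125 in the TGFB1 libraries, 121 and 156 in the celastrol libraries, and 128 and 178 where both were given. SNORA73A changed by 0.10 (SE 0.22, adjusted p = 0.7) and 0.54 (SE 0.22, adjusted p = 0.0641). Another gene of this locus, RCC1, rose with celastrol by 0.35 without TGFB1 (SE 0.08, adjusted p = 0.00455 in limma). In TGFB1-treated cells RCC1 rose by 0.41 (SE 0.08, adjusted p = 0.00165 in limma). The host SNHG3, a noncoding snoRNA host, went from 2775 ± 58.0 (SD, n = 2) in control to 962 ± 97.7 with celastrol, falling by 1.53. In TGFB1-treated cells SNHG3 went from 3201 ± 99.8 to 1047 ± 6.33, falling by 1.61. The difference between the 2 snoRNAs was not tested, and the call without TGFB1 was lost without the first celastrol (adjusted p = 0.0869) or second control library (adjusted p = 0.0723).

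SNORA71B, in an intron of the host SNHG17, held 16.3 and 13.8 in control, 22.6 and 20.9 with TGFB1, 1.55 and 0 under celastrol and 7.01 and 2.20 with both. It fell by 2.17 (SE 0.57, adjusted p = 0.00985) and 3.32 (SE 0.57, adjusted p = 0.00126), and SNHG17 fell by 1.59 and 0.94. SNORA71B passed the filter only through the libraries without celastrol, so its direction was fixed. Without the second library with both agents, the first change of SNORA71B was -1.50 (adjusted p = 0.0781). SNORA23, in an intron of the import receptor gene IPO7, fell from 26.8 and 33.2 to 11.9 and 11.01 in TGFB1-treated cells (-1.31, SE 0.32, adjusted p = 0.00652) and from 26.3 and 20.4 to 10.8 and 9.69 without (-1.10, SE 0.32, adjusted p = 0.0173). IPO7 fell by 0.98 in the first comparison and changed by -0.17 (adjusted p = 0.0669) in the second, where the SNORA23 call was lost without the second celastrol (0.0736) or first control library (0.0955). SNORA14A, in an intron of the reductase gene POR, was the 1 higher H/ACA row, at 5.003 and 1.80 in control, 0 and 1.23 with TGFB1, 19.3 and 20.6 under celastrol and 22.4 and 16.5 with both (3.76 and 2.35, SE 0.53, adjusted p = 0.000293 and 0.00505 in limma). SNORA14A passed the filter only through the celastrol libraries, so its direction was fixed too. POR rose by 0.52 and 0.55.

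Of 11 genes for H/ACA particle proteins and their assembly, 3 were higher and 4 lower with celastrol in TGFB1-treated cells (median -0.11). Of 48 tested genes on the list of snoRNA hosts, 6 were higher and 28 lower (median -0.31), and 6 were higher and 21 lower without TGFB1 (median -0.15, where the median of all genes tested was 0.08). GAS5 and SNHG15, both noncoding hosts, fell by 1.28 (SE 0.09) and 1.73 (SE 0.11), while SNHG10, the host of SCARNA13, rose by 0.88 (SE 0.10).

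Among the 7 scaRNAs, TGFB1 left 2 higher, where 12.8% of all genes tested were called higher. SCARNA7, in an intron of the import gene KPNA4, went from 93.8 and 133 in control to 182 and 202 (0.77, SE 0.21, adjusted p = 0.0301), and KPNA4 rose by 0.74. SCARNA6 went from 31.3 and 26.4 to 66.4 and 54.1 (1.04, SE 0.27, adjusted p = 0.0247), with no overlap, while its host ATG16L1 changed by 0.10 (SE 0.07, adjusted p = 0.372). Fits with only the 4 control and TGFB1 libraries gave an adjusted p of 0.108 for SCARNA6 and 0.16 for SCARNA7, and scaling to a common total gave 0.55 for SCARNA7 (adjusted p = 0.083). Leaving out 1 library ended the SCARNA6 call for the first TGFB1 library and for either control library (adjusted p = 0.0571 to 0.11 in limma), and the SCARNA7 call for either TGFB1 library, either library with both agents and the first control library (0.0574 to 0.166). SCARNA5 in the same host held 259 and 345 in control and 362 and 307 with TGFB1, which overlap (0.16, SE 0.16, adjusted p = 0.532).

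With celastrol in TGFB1-treated cells SCARNA6 fell to 33.7 and 27.5, near the control libraries (-0.95, SE 0.27, adjusted p = 0.0128, but 0.0563 without the first TGFB1 and 0.0755 without the second library with both agents), and SCARNA2, which lies in an exon of AL356488.2, fell from 261 and 229 to 132 and 133 (-0.88, SE 0.18, adjusted p = 0.00232). Without TGFB1, SCARNA2 went from 233 and 211 to 135 and 189 (-0.47, SE 0.18, adjusted p = 0.0504). That change passed the threshold with a common total (adjusted p = 0.024 in limma) and with median centring (0.013). It also passed with the other pseudocount (0.0445), the replicate block (0.0475) and no low-value filter (0.0494). SCARNA6 without TGFB1 held 31.7 and 33.9 with celastrol, and its interaction of the 2 agents was -1.14 (SE 0.38, adjusted p = 0.0961). SCARNA10, in an exon of NCAPD2, spanned 396 to 773 and SCARNA13 68.8 to 133 over the 8 libraries, and neither passed a test.

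**Figure D3:**
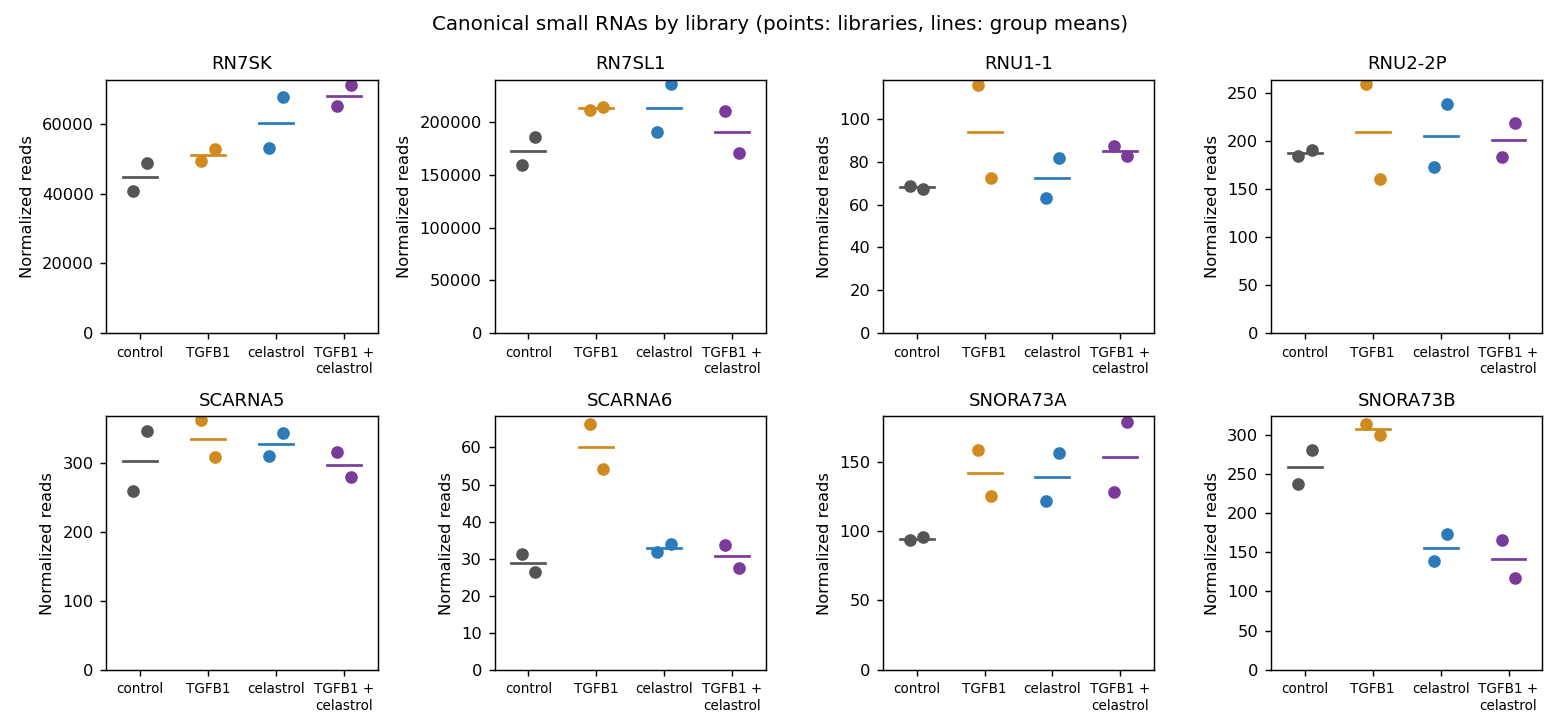
Normalized reads (vertical axes, each from 0) of 8 canonical small RNAs by group, with points for libraries and lines for means of n = 2. The groups overlap for RNU2-2P, SCARNA6 is high only in the 2 TGFB1 libraries without celastrol, and SNORA73B is lower in all 4 celastrol libraries where SNORA73A is not.

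The 7SK locus rose modestly with celastrol. It is listed in 2 nearly coincident rows, RN7SK and 7SK, whose reads cannot be told apart. RN7SK held 40628 and 48638 in control, 49284 and 52869 with TGFB1, 53053 and 67675 under celastrol and 65004 and 71103 with both. Both celastrol comparisons had groups that did not overlap, with changes of 0.41 in TGFB1-treated cells (SE 0.13, adjusted p = 0.0201) and 0.43 without (SE 0.13, adjusted p = 0.0194). The 7SK row changed by 0.28 (SE 0.12, adjusted p = 0.0725) and 0.39 (SE 0.12, adjusted p = 0.0252). Centring each library on its median gene lowered the first comparison by 0.29 and the second by 0.17 for all genes, and RN7SK was then at 0.13 (adjusted p = 0.426) and 0.26 (adjusted p = 0.123). The first RN7SK call was also lost without the first TGFB1 library or either library with both agents (adjusted p = 0.0786, 0.0583 and 0.137 in limma), and the second without the second celastrol or first control library (0.169 and 0.131). The call of the 7SK row was lost in 9 alternatives, among them median centring (0.22, adjusted p = 0.165) and the fit without the second celastrol library (0.18, adjusted p = 0.175).

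Among 10 genes of the 7SK particle and P-TEFb, 3 were higher and 3 lower with celastrol in TGFB1-treated cells (median -0.01). HEXIM1, which inhibits P-TEFb while bound to 7SK, fell by 0.35 with TGFB1 (SE 0.08, adjusted p = 0.0183) and rose by 0.45 when celastrol was added (SE 0.08, adjusted p = 0.00148). MEPCE, which caps 7SK, fell by 0.43 with TGFB1 (SE 0.10, adjusted p = 0.0183) and by 0.40 with celastrol alone (SE 0.10, adjusted p = 0.0103). HNRNPA1, which binds released 7SK, fell by 0.55 and 0.61 with celastrol.

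The 7SL genes did not pass a test in any comparison. RN7SL1 held 159959 and 185933 in control, 212172 and 214292 with TGFB1, 190948 and 236639 under celastrol and 210650 and 170747 with both. RN7SL2 ranged from 87713 to 124290 and RN7SL3 from 479.9 to 666. RN7SL1 changed by -0.17 in TGFB1-treated cells (SE 0.14, adjusted p = 0.32) and by 0.30 without (SE 0.14, adjusted p = 0.1), and by -0.46 (adjusted p = 0.0207) in the first with median centring. Of the 8 tested genes for proteins of the signal recognition particle and its receptor, 6 were higher and 0 lower with TGFB1 (median 0.33). With celastrol, 0 were higher and 6 lower in TGFB1-treated cells (median -0.48), and 0 higher and 5 lower without TGFB1 (median -0.18). The shares of all genes were 12.8% and 10.6%, 37.5% and 25.9%, and 33.8% and 21.3%. The first 2 of these comparisons share the TGFB1 libraries. SRP54, which binds signal sequences, rose by 0.34 with TGFB1 (SE 0.05, adjusted p = 0.00217). It fell by 0.64 with celastrol in TGFB1-treated cells (SE 0.05, adjusted p = 1.39e-05).

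The row named Y_RNA merges several loci. It held 252 and 322 in control, 322 and 318 with TGFB1, 240.4 and 288 under celastrol and 274 and 258 with both, and passed no test. Of 7 genes for Ro and vault particle proteins, 0 were higher and 5 lower with celastrol in TGFB1-treated cells (median -0.40), among them RO60, which binds Y RNAs, by 0.49 (SE 0.09, adjusted p = 0.00126). Of 26 genes of RNA polymerase III and its factors, 3 were higher and 15 lower (median -0.36). Of 20 tested genes for small RNA decay and the nuclear exosome, 6 were higher and 14 lower (median -0.45).

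Pseudogene copies made up 106 rows, 84 of 7SL and 22 of 7SK, and their changes are given by where they lie. Copies of 7SL were 76.3% to 91.6% identical to RN7SL1 and copies of 7SK 68.2% to 90.9% identical to RN7SK, with 0 identical copies. By position, 74 lay in an intron of a gene on their strand, 18 between genes, 8 opposite to a gene and 6 in an exon. Without the filter, 60 of the 74 intronic copies had a negative change with celastrol in TGFB1-treated cells (median -1.004) and 57 without TGFB1 (median -0.90). Of the 18 copies between genes, 15 and 18 had a positive change (medians 2.44 and 2.99). The medians over all rows of the table were 0.18 and 0.12. Every row of the table had reached at least 11 estimated reads in some library. Low copies were thus still selected by their highest library, and the counts without the filter are not free of selection. Summed, the 74 intronic copies gave 971 to 1156 normalized reads in the libraries without celastrol and 560.1 to 645 in those with it. The 18 copies between genes gave 22.1 to 64.8 and 248 to 304. Of the 14 copies between genes that were tested, 11 passed only through the celastrol libraries, and of the 52 intronic ones 22 passed only through the others, so the sign of those rows was set by the filter. Only 9 of the intronic copies and 1 of those between genes, RN7SL472P, had a mean of at least 20 normalized reads.

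Several copies between genes were at or near 0 without celastrol and well above it with celastrol. RN7SL472P held 1.25, 1.80, 1.41 and 2.46 in the 4 libraries without celastrol, 54.9 and 65.4 under celastrol and 71.5 and 59.4 with both (4.52 and 4.60, SE 0.36, adjusted p = 1.24e-05 and 1.55e-05 in limma). All 4 values without celastrol are 1 to 3 reads, so the fitted change depends on the added 1. RN7SL472P and RN7SL541P passed the filter only through the celastrol libraries, so they had to be higher there. RN7SL472P lies on the same strand, 3266 bases beyond the end of HSP90AA1, the gene of a heat shock protein, which rose by 1.61 and 1.66. RN7SL541P (chromosome 5, 134517810 to 134518092) was at 0 with 1 exception of 1.20, and at 44.1, 31.5, 44.9 and 30.8 with celastrol, which is at least 9.55-fold higher in TGFB1-treated cells. It lies 8581 bases beyond LINC01843, which went from 0 and 1.20 in control to 103 and 119 with celastrol.

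RN7SL786P held 0 in the 4 libraries without celastrol and 10.52 to 18.2 with it, 9171 bases beyond MOGAT2, an acyltransferase gene that went from 0.625 ± 0.884 (SD, n = 2) to 297 ± 43.9 with celastrol. RN7SL475P held 0 and then 6.60 to 20.9, 12215 bases beyond C1orf87, which was at 0 without celastrol and at 303 ± 31.4 (SD, n = 2) with it. RN7SL432P also held 0 and then 4.91 to 15.7, but the nearest gene before it, NRAS at 6545 bases, fell by 0.61 and 0.16. RN7SL787P was at 0 and then 17.3 to 27.5, with 458687 bases to the nearest such gene. RN7SKP196 was at 0 and then 16.5 to 21.8, 37747 bases beyond BICC1, which rose by 0.37 and 0.17. RN7SL629P, opposite to a gene, was at 0 and then 17.0 to 32.7. The copies of this paragraph also passed the filter only through the celastrol libraries, so their direction was fixed. Transcription through the stretch between gene and copy was not measured.

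The intronic copies that fell, among those named here, had changes below those of the genes around them. RN7SKP16, in an intron of the Polycomb gene PHC2, held 61.3 and 57.6 in control, 56.5 and 88.5 with TGFB1, 8.50 and 0 under celastrol and 9.81 and 7.70 with both (-2.89 and -4.29, SE 0.86, adjusted p = 0.0172 and 0.00287 in limma). All values of RN7SKP16 with celastrol were below 10, so it passed the filter only through the other libraries and had to be lower. Its fitted changes are a description. PHC2 fell by 0.56 in TGFB1-treated cells (SE 0.11) and changed by 0.01 (adjusted p = 0.932) without TGFB1. RN7SKP97, in an intron of ASPH, fell from 45.0 to 66.0 in the libraries without celastrol to 9.90 to 21.03 in those with it (-1.67 and -1.71, SE 0.42), and ASPH fell by 0.17 and 0.26. RN7SL648P, in an intron of the noncoding gene FTX, fell from 55.1 to 88.8 without celastrol to 19.8 to 46.0 with it (-1.33 and -1.10, SE 0.40, adjusted p = 0.017 and 0.0437 in limma).

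RN7SL118P, in an intron of SLC25A43, held 16.3 to 22.1 without celastrol and 0, 3.63, 0 and 0 with it. RN7SL398P, in an intron of the receptor gene NRP1, held 25.01 to 32.4 without and 0 to 7.73 with celastrol, while NRP1 rose by 0.62 in TGFB1-treated cells. RN7SL118P and RN7SL398P also passed the filter only through the libraries without celastrol, so their direction was fixed. RN7SL16P, in an intron of the helicase gene DHX15, fell by 2.90 and 2.04, and DHX15 fell by 0.46 and changed by -0.11. Leaving out single libraries ended calls here in TGFB1-treated cells for RN7SKP16 (the second TGFB1 library or either with both agents, adjusted p = 0.0748 to 0.101), RN7SKP97 (the second with both, 0.0651), RN7SL648P (the second TGFB1 or second with both, 0.0909 and 0.133) and RN7SL398P (any of the 4, 0.0790 to 0.172). Without TGFB1 it did so for RN7SKP97 (the first celastrol or second control, 0.0694 and 0.0553), RN7SL16P (the first celastrol or first control, 0.0845 and 0.0702), RN7SL398P (the second control, 0.0505) and RN7SL648P (the first celastrol, either control or either library with both agents, 0.0522 to 0.265).

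**Figure D4:**
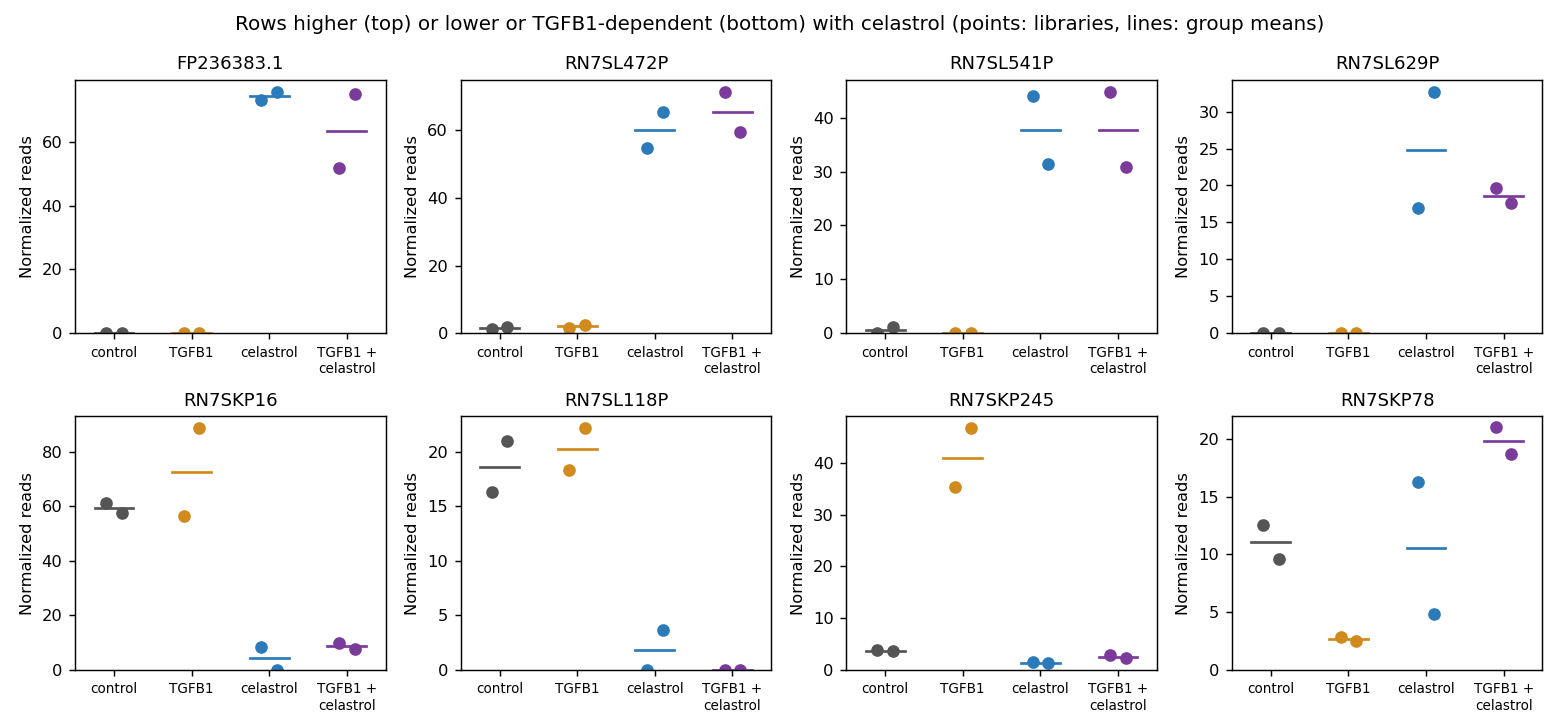
Normalized reads (vertical axes, each from 0) of 8 rows by group, with points for libraries and lines for means of n = 2. The upper 4 rows are at or near 0 in all libraries without celastrol, RN7SKP16 and RN7SL118P fall with celastrol, and RN7SKP245 is high only in the 2 TGFB1 libraries without celastrol.

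Intronic rows of every class could be set beside the gene around them, 111 rows in 105 genes. Rows that the annotation left outside genes counted as intronic where a gene of the deposited table spanned them, without a check of its exons. Where several genes spanned a row, the gene with the highest mean was taken as host. The 111 include RN7SL2, a 7SL gene, with AL627171.2 as host at 30.1 ± 6.68 normalized reads (SD, n = 2) in control. With celastrol in TGFB1-treated cells the rows had a median change of -0.95 and their hosts -0.12, and 89 of the 111 rows lay below their host. Without TGFB1 the medians were -0.76 and 0.05, and 83 lay below. Of the 29 intronic rows called lower in TGFB1-treated cells, the host was called lower for 21, higher for 4 and not called for 4. Of the 29 called lower without TGFB1, the host was lower for 10, higher for 6 and not called for 13. All 12 called higher in TGFB1-treated cells had a host called higher, as did 10 of 11 without TGFB1. Of all genes tested, celastrol left 37.5% higher and 25.9% lower in TGFB1-treated cells, and 33.8% and 21.3% without TGFB1. FP236383.1, FP236383.2 and FP671120.1 are among the 12 and the 11 and held identical values. Of 77 tested intronic rows, 9 passed the filter only through the celastrol libraries and 31 only through the others. The direction of those rows was fixed. Every row, tested or not, had also reached at least 11 estimated reads in some library. Across the 111 rows Spearman's rho between row and host was 0.52 and 0.51, and 0.51 for TGFB1 against control. These are descriptions: a row and its host share the libraries, some rows share a host, and unspliced host RNA can give reads in an intronic row.

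**Figure D5:**
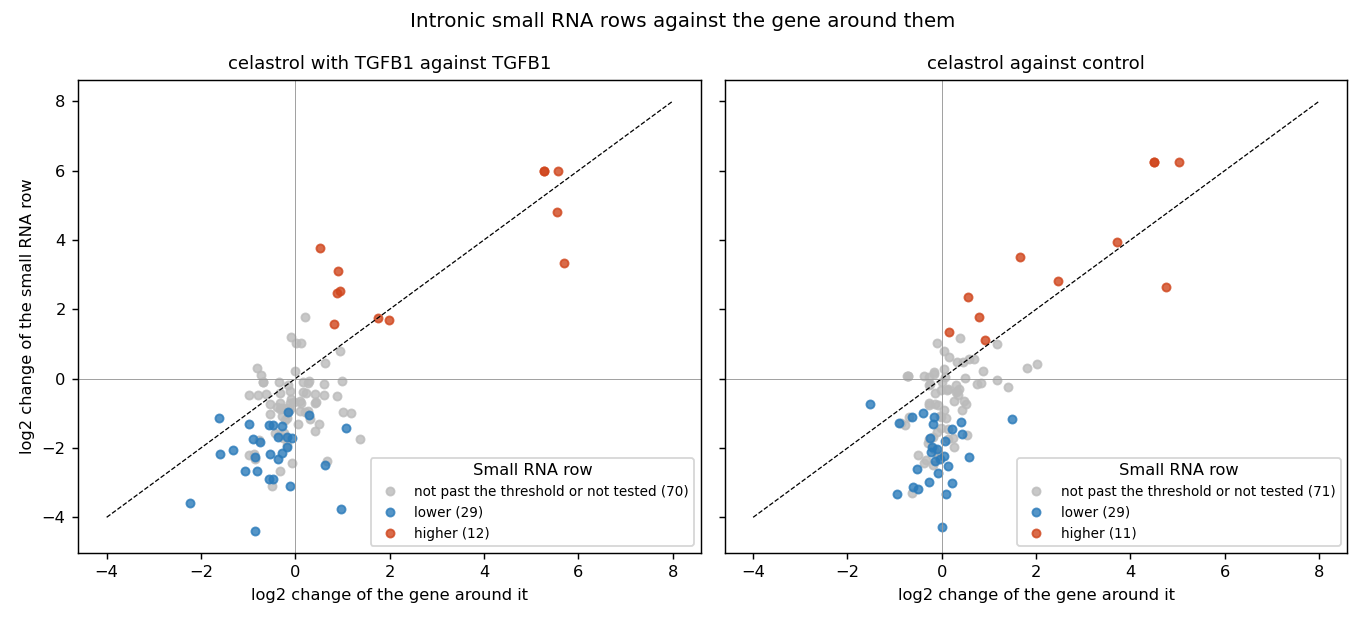
Log2 change of each of the 111 intronic small RNA rows (vertical axis) against that of the gene around it (horizontal axis), for celastrol with TGFB1 against TGFB1 (left) and celastrol against control (right), coloured by the call of the small RNA row, with a dashed line at equal change. In the left panel 89 of 111 points and in the right panel 83 lie below the line.

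In TGFB1 against control, 4.32% of the 139 tested rows were called higher and 2.16% lower, against 12.8% and 10.6% of all genes tested. Introns held 77 of the 139 rows. The calls covered 9 rows, all in introns. Beside SCARNA6 and SCARNA7 they were RN7SKP245, RN7SKP268, RN7SKP296 and RN7SL473P, which were higher, and RN7SKP283, RN7SKP78 and RN7SL861P, which were lower. RN7SKP245, in an intron of the ectonucleotidase gene ENPP1, held 3.75 and 3.60 in control, 35.3 and 46.7 with TGFB1, 1.55 and 1.21 under celastrol and 2.80 and 2.20 with both. It passed the filter only through the 2 TGFB1 libraries, so it had to differ between them and the others, and its fitted changes of 3.15 with TGFB1 and -3.58 when celastrol was added (SE 0.36) are a description. ENPP1 rose by 1.93 and fell by 2.23 in the same comparisons. RN7SKP268, in an intron of the scaffold gene AKAP12, went from 1.25 and 2.40 to 11.3 and 8.60 (1.97, SE 0.39, adjusted p = 0.0079, but 0.0546 without the first control library), and AKAP12 rose by 1.17. RN7SKP78, in an intron of the glycolytic regulator PFKFB3, went from 12.5 and 9.60 to 2.82 and 2.46 (-1.72, SE 0.51, adjusted p = 0.0423, and 0.0785 to 0.172 without any 1 of the control, TGFB1 and both-agent libraries), while PFKFB3 rose by 0.68. RN7SKP283, in an intron of PID1, went from 2.50 and 4.799 to 0 and 1.23, a handful of reads, and its call was lost in 12 of 15 alternative fits. Without the first control library, 1 row in place of 6 was called higher with TGFB1, 2 without the first TGFB1 library, and 1 with only the control and TGFB1 libraries. Without the second control library, 0 in place of 3 were called lower, and 0 also without either library with both agents.

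The interaction, which asks whether the celastrol difference depends on TGFB1, called 1 row higher and 1 lower, where 4.36% of all genes were higher and 6.89% lower. The lower row was RN7SKP245 (-2.60, SE 0.51, adjusted p = 0.0146), whose few reads without TGFB1 left little room for a fall there, and the higher one RN7SKP78 (2.77, SE 0.72, adjusted p = 0.0433). The first was at an adjusted p of 0.05 to 0.0532 without the second TGFB1, second control or second library with both agents, and the second passed the threshold in 1 of 8 fits that left out a library, the one without the first celastrol library.

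Of the 17 other misc_RNA rows, 13 lie within exons of other genes, whose reads they can hold. The 4 chromosome 21 rows shown above held the same values, 0 in all 4 libraries without celastrol, 73.0 and 75.7 under celastrol and 51.7 and 75.1 with both. That is at least 26.8-fold higher without TGFB1 and at least 16.0-fold higher with it, against 3 reads per library. They passed the filter only through the celastrol libraries, and they count as 4 of the higher rows above but are 1 measurement. The rows that enclose 3 of them rose too: FP236383.3 went from 48.8 ± 12.3 to 1111 ± 93.3 (SD, n = 2) with celastrol, and FP671120.4 from 15.3 ± 0.533 to 529.8 ± 73.4.

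AC114778.1, in an exon of NABP1, held 66.4 and 60.0 in control, 19.9 and 31.5 with TGFB1, 7.33 and 3.76 under celastrol and 3.63 and 6.79 with both. It fell with celastrol by 2.12 (SE 0.43, adjusted p = 0.00263) and 3.35 (SE 0.43, adjusted p = 0.000251), where NABP1 rose by 0.89 in TGFB1-treated cells and changed by 0.13 (adjusted p = 0.216) without TGFB1. AC114778.1 passed the filter only through the libraries without celastrol, so its direction was fixed. AC005076.2, in an exon of DMTF1, went from 22.6 and 32.0 to 2.10 and 2.20 in TGFB1-treated cells (-3.15, SE 0.56, adjusted p = 0.00123), and DMTF1 fell by 0.90. AL137060.1, in an exon of DLEU1, rose from 16.4 and 23.5 to 43.7 and 41.2 (1.07, SE 0.30, adjusted p = 0.0133), and DLEU1 rose by 1.14. The AL137060.1 call was lost without the first TGFB1 library or either library with both agents (adjusted p = 0.0531 to 0.0677 in limma). The row Telomerase-vert, which covers the telomerase RNA locus, held 249 to 389 in the 8 libraries, and AC023509.4, in an exon of PCBP2, held 162 to 204. Neither passed a test.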

How the data were processed

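Total RNA of 8 libraries was sequenced, and the deposited table gives 1 signal value per gene and library, which are reads divided by a size factor, as the authors normalized them. STAR 2.7.3a, Partek 10.0.22, DESeq2 and build hg38 are named per the submitters' processing notes; the sources used here do not state their roles, nor how strand and reads with several matches were handled. Low values were whole multiples of 1 read (within 0.02) for 72.7% to 76.0% of values below 2000, which gave the depths.

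The test took genes that reached 10 normalized reads in 2 or more libraries, as log2(value + 1), in limma 3.58.1 (R 4.3.3) over all 8 libraries with a variance trend and 4 residual degrees of freedom, two-sided, for 5 comparisons, at an adjusted p of 0.05. Fold changes on this scale understate changes of low genes. The procedure was run on simulated data in which only genes with a mean of at least 20 normalized reads changed, with a fixed dispersion. The 136 of 189 rows with a mean under 20 lie largely outside what that run covered. Alternatives were another pseudocount, filter, scaling, variance prior, set of libraries, the replicate block and each library left out. The members, the 13 gene lists and the tests were chosen with earlier results of these data known. Named genes were the canonical small RNAs, up to 3 called rows per class, direction and comparison without overlap whose higher group averaged 50 or more, their hosts, and up to 4 genes per list, except where stated. The sequence of 1 member is not reported here.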

Additional observations from a re-analysis of the deposited data

Results flagged for a closer look

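The celastrol change of 2 rows differed between cells with and without TGFB1 in the interaction test. For RN7SKP245 the interaction was -2.60 on the log2 scale (SE 0.51, adjusted p = 0.0146 in limma), with 2 of 2 libraries lower in TGFB1-treated cells. This row passed the filter only through the TGFB1 group and held 3.75 and 3.60 normalized reads in control, so it could hardly fall there. For RN7SKP78 the interaction was 2.77 (SE 0.72, adjusted p = 0.0433 in limma), with 2 of 2 libraries higher in TGFB1-treated cells. The RN7SKP78 call was lost in 7 of 8 fits without 1 library (adjusted p = 0.0686 to 0.139), without a variance trend (0.0917) and without the low-value filter (0.0509).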

How the results depend on the processing

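Rows of few reads limit these results: 136 of the 189 rows had a mean under 20 normalized reads. Among rows with a mean of at least 20, a choice made after the data were seen, TGFB1 left 3 higher and 0 lower, celastrol 7 higher and 12 lower in TGFB1-treated cells and 7 higher and 9 lower without, and the interaction 0 and 0. Median centring gave 12 higher with TGFB1, 62 lower with celastrol in TGFB1-treated cells and 3 with a negative interaction. All genes under that scaling gave 20.9% higher, 39.8% lower and 12.02% negative. Scaling to a common total gave 5 lower with TGFB1. With only the compared libraries, TGFB1 left 1 higher and 1 lower. Without a variance trend 0 rows had a positive and 2 a negative interaction, and without the low-value filter 0 had a positive one. The cause of these changes was not tested. Leaving out 1 library gave 1 to 7 higher and 0 to 2 lower with TGFB1, 21 to 27 higher and 27 to 39 lower with celastrol in TGFB1-treated cells, 19 to 30 higher and 23 to 36 lower without TGFB1 (23 without the second control library), and 0 to 2 interactions in each direction. A lone library was taken to vary like the other groups. Counting identical rows once, also chosen after the data were seen, left 23 and 24 higher with celastrol. TGFB1 with celastrol gave 0 in every alternative run.

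Same-numbered libraries share only a number (correlations of their deviations 0.05 to 0.082). The replicate block gave 9 higher and 3 lower with TGFB1, 28 and 43 with celastrol in TGFB1-treated cells, and 30 and 39 without. Of 280 results for 56 named rows, 76 were called, 28 of these lost the call in at least 1 alternative, and 0 called ones reversed.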
